A study of Arabidopsis thaliana with 2 samples.

Results

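The genes described here are LAS, YAB3 and YAB5, 3 of the 13356 genes that could be read from the array, chosen by their symbols in the array's annotation as regulators of axillary meristems and of leaf polarity. Each was read from its brightest probe set annotated to exactly 1 gene, and each has only 1 such probe set. Total RNA came from shoots of wild-type Arabidopsis thaliana, ecotype Col-0, and was hybridised to Affymetrix ATH1 arrays, 1 array per group. The NPA group grew on medium with N-(1-naphthyl) phthalamic acid (NPA), which inhibits the polar transport of auxin, dissolved in DMSO, and the control group on medium with an equal volume of DMSO. The dose is uncertain, since the labels put NPA at 10 uM in the description of its own sample but at 10 mM in the growth protocol of both samples. All plants were about 2 weeks old, had about 6 rosette leaves and were kept near 20 C under 16 h of light a day. For both samples the labels also give developmental stage 1.04 and at least 2 days of stratification. The labels used here give no number of plants behind either RNA, and neither group has a replicate.

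LAS (LATERAL SUPPRESSOR) encodes a transcription factor of the GRAS family that is made in the axils of young leaves and is needed to start axillary meristems, the buds from which side shoots grow, during vegetative growth. YAB3 and YAB5 encode transcription factors of the YABBY family, which act in young leaves and other lateral organs. There they promote growth of the blade and the identity of its lower, abaxial side, and they overlap in function with other family members. Auxin moved by polar transport is known to position leaves at the shoot apex, and a zone of low auxin in the leaf axil precedes the axillary meristem.

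With NPA, the signals of LAS and YAB3 stood at 48.2% and 45.4% of their control signals, whereas that of YAB5 stood at 126.8%. Signals are linear array intensities, and a signal below an array's 40th percentile, which was 28.3 in the control and 27.9 with NPA, was treated as at the floor. All 3 genes were above the floor on both arrays. A size rule of 2-fold was used because 1 array per group allows no test. By this rule LAS and YAB3 were lower with NPA and YAB5 lay inside 2-fold. Of all 7753 measured genes, 2.13% were at least 2-fold lower and 3.75% at least 2-fold higher.

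The signal of LAS (AT1G55580, probe set 265072_at) was 61.4 in DMSO-grown shoots and 29.6 in NPA-grown shoots. The control signal was 2.17 times its floor and the NPA signal 1.06 times its floor, so the NPA value stood barely above the range treated as unmeasured. As a log2 ratio of NPA over control this is -1.05, a signal 2.08-fold lower with NPA. Of the 7753 measured genes, 142, or 1.83%, had a log2 ratio as low as that of LAS or lower. Shoots are mixed tissue, and fewer cells that express a gene cannot be told apart from less of its RNA per cell.

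YAB3 (AT4G00180, probe set 255709_at) gave 133.9 without NPA and 60.7 with it. These were 4.73 and 2.18 times the floors, so both values were well clear of the floor. The log2 ratio was -1.14, a signal 2.21-fold lower with NPA, and 95 measured genes, or 1.23%, had a ratio as low or lower.

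YAB5 (AT2G26580, probe set 245029_at) gave signals of 56.8 without NPA and 72.1 with it, which were 2.01 and 2.58 times the floors. The log2 ratio was 0.34, a signal 1.27-fold higher with NPA, and 21.7% of measured genes had a ratio as high or higher. The log2 ratio of YAB5 was thus 1.48 above that of YAB3, its relative in the same family, and 1.40 above that of LAS. The ratios of LAS and YAB3 lay 0.09 apart. None of these differences between genes could be tested with 1 array per group.

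**Figure D1:**
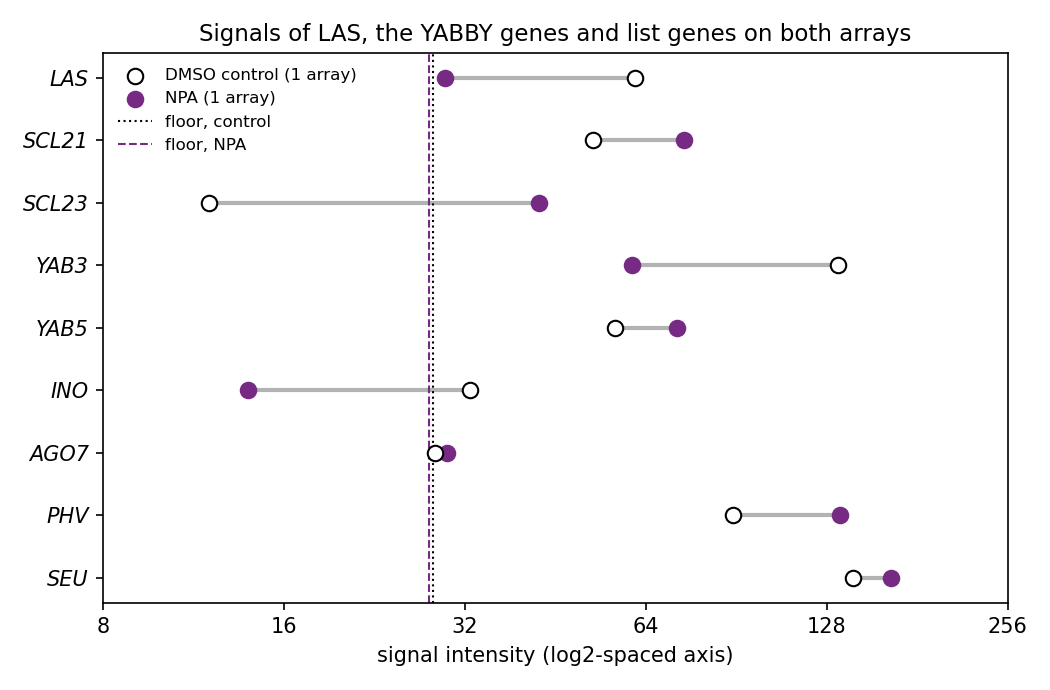
Signal intensity on a log2-spaced axis for LAS and 2 other GRAS genes, for YAB3, YAB5 and INO of the YABBY family, and for AGO7, PHV and SEU, with 1 open point for the control array, 1 filled point for the NPA array and vertical lines at the floors of 28.3 and 27.9. The filled point lies to the left of the open point for LAS, YAB3 and INO and to the right for the other genes, and positions are not comparable between genes because each has its own probe set.

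How far ratios scatter at a like signal was read from the 500 other genes nearest to each gene in mean log2 signal, all above the floor on both arrays. The SD of their log2 ratios was 0.48 around LAS, 0.55 around YAB3 and 0.54 around YAB5. This scatter holds differences between the plants as well as measurement error, and it is no replicate error. The ratio of LAS was -2.18 times this SD, that of YAB3 -2.08 times and that of YAB5 0.64 times. Among these neighbours, 1.8% were at least 2-fold lower around LAS and 3% around YAB3, and 4.2% were at least 2-fold higher around YAB5. The neighbours of LAS are limited by the floors on both sides, since each had to be above the floor on both arrays. Such limits can only narrow their SD, so the multiple given for LAS is not comparable with that for YAB3. At its mean signal, a gene above the floor on both arrays can have a log2 ratio no lower than -1.23, so LAS lay close to the lowest value that could be seen there.

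**Figure D2:**
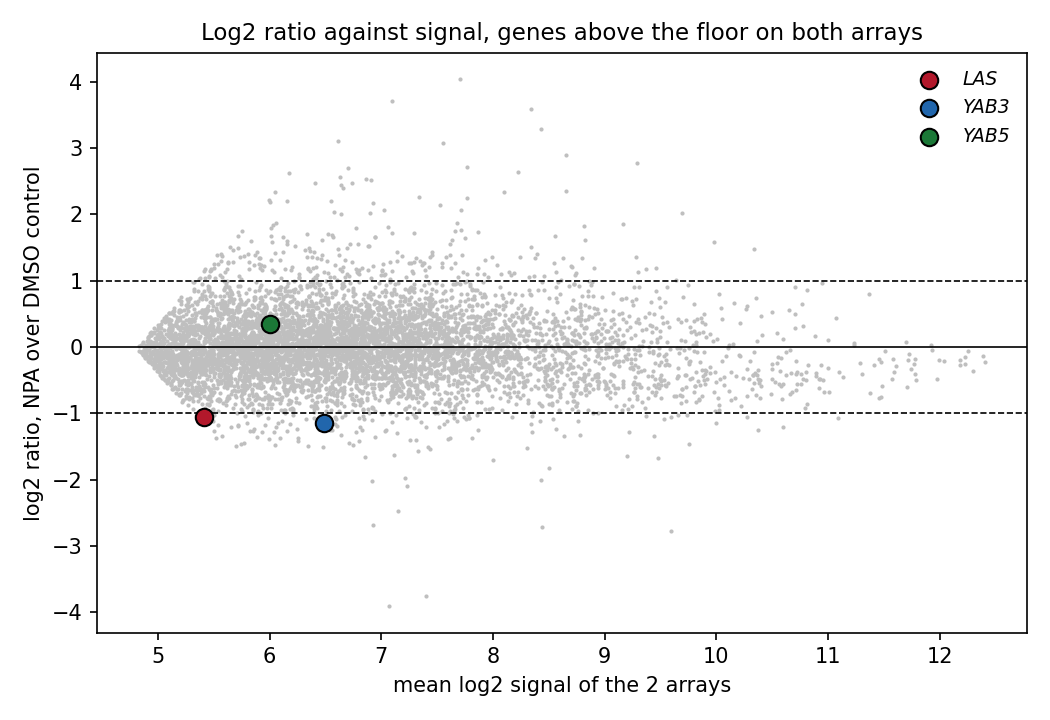
Log2 ratio of NPA over control against the mean log2 signal of both arrays for the 6809 genes above the floor on both, in grey, with dashed lines at 2-fold. LAS, at -1.05, sits close to the sloping lower edge that the floor sets at low signal, which is -1.23 at its mean signal. YAB3, at -1.14, sits below the dashed line in the open range, and YAB5, at 0.34, sits inside the bulk of the genes.

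The 2-fold difference of LAS rested on where the floor was set. It held with the floor at or below the 41st percentile of each array, and above that its NPA signal was under the floor. LAS was then at least 1.74-fold lower under a floor at the 45th percentile and at least 1.11-fold lower at the 55th. YAB3 stayed past 2-fold with floors up to the 59th percentile. Adding a constant of 2.23 to both signals would bring LAS to 2-fold, whereas YAB3 would need 12.4. With the floor itself added to both signals, the log2 ratio was -0.64 for LAS, -0.87 for YAB3 and 0.23 for YAB5. For 27 probe sets of unspiked bacterial controls, the median signal was 4.75 without NPA and 2.47 with it, a gap of 2.28. Over all analysed probe sets, the 10th percentile was 2.96 without NPA and 2.69 with it. The 25th percentile was 14.01 and 12.61, the 33rd 20.85 and 19.14, and the 40th 28.3 and 27.9. With the control signals lowered by the gap of 2.28, LAS came just inside 2-fold. The log2 ratios of YAB3 and YAB5 were then -1.12 and 0.40. What part this gap has in the LAS value was not tested further.

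**Figure D3:**
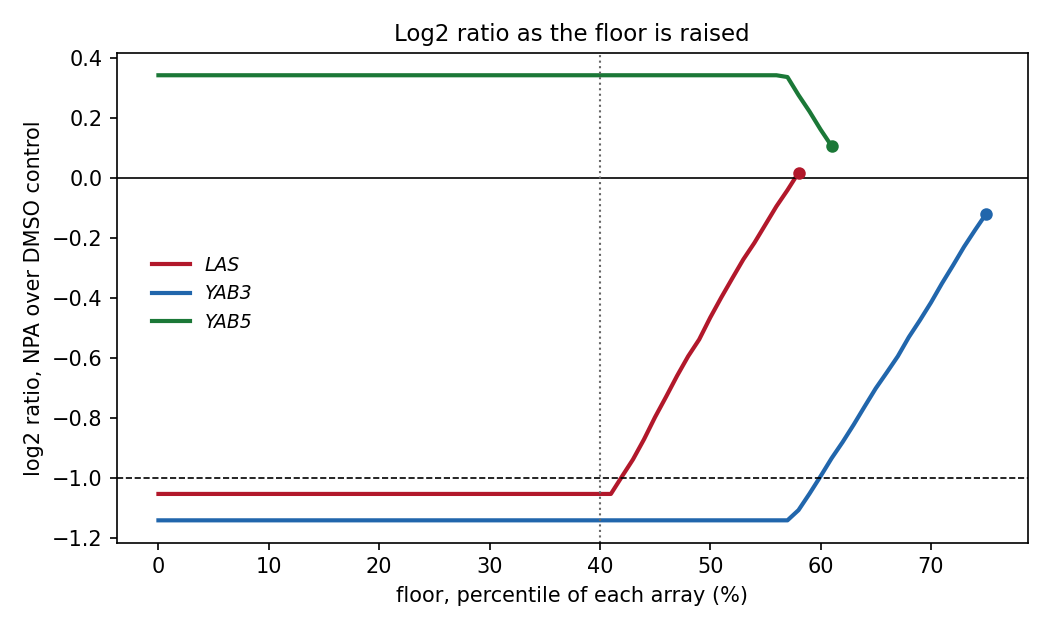
Log2 ratio of NPA over control for LAS, YAB3 and YAB5 as the floor is raised from the lowest signal to the 75th percentile of each array, with a dotted line at the 40th percentile and a dashed line at 2-fold lower. The LAS line leaves -1.05 above the 41st percentile and is near 0 when it ends at the 58th. The YAB3 line comes inside 2-fold above the 59th and runs to the 75th. The LAS and YAB5 lines end where both arrays come to the floor.

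Scaling the arrays in other ways moved the 3 genes little. Across median centring, quantile normalization and lowess centring, the log2 ratio of LAS was -1.05, -1.08 and -1.03. That of YAB3 was -1.13, -1.20 and -1.18, and that of YAB5 0.35, 0.28 and 0.32. LAS and YAB3 were therefore past 2-fold under each of these 3 scalings, and YAB5 was above 0 and inside 2-fold under each.

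**Figure D4:**
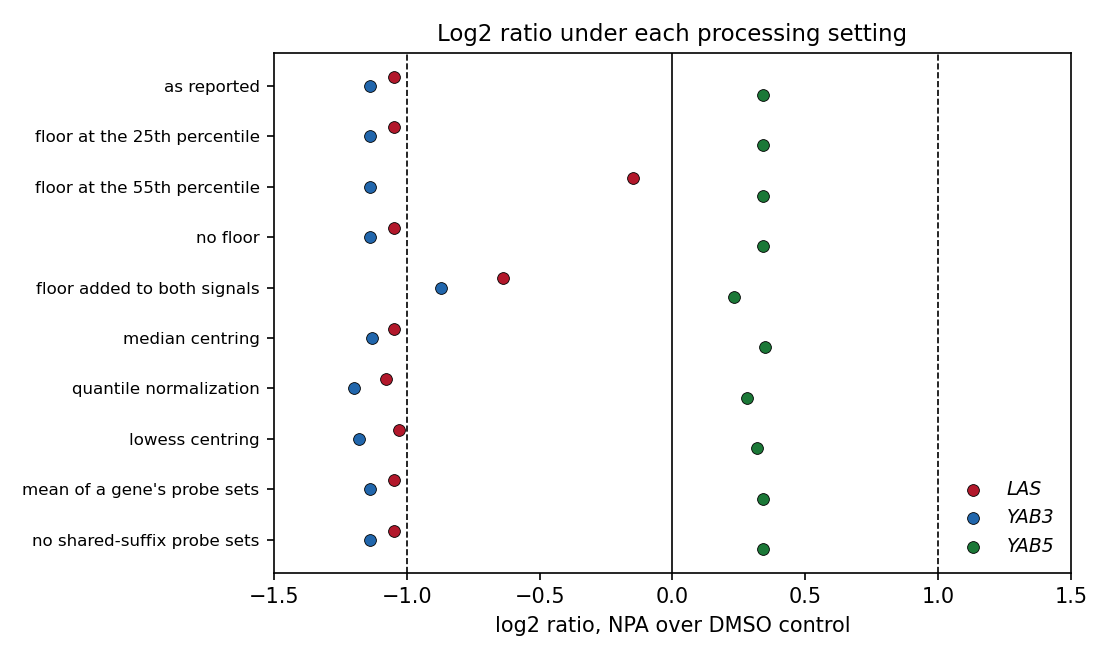
Log2 ratio of NPA over control for LAS, YAB3 and YAB5 as reported and under 9 other settings, with dashed lines at 2-fold. LAS comes inside 2-fold under a floor at the 55th percentile (-0.15) and with the floor added (-0.64), YAB3 with the floor added (-0.87), and YAB5 stays between 0.23 and 0.35.

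Of the 6 YABBY genes, YAB3, YAB5 and INO had a named probe set here. Of these 3, 1, YAB3 itself, was at least 2-fold lower, beside 2.13% of all measured genes. INO, known for its role in the outer integument of the ovule, gave 32.6 without NPA, little above the floor, and 13.9 with NPA, below it, and was at least 1.17-fold lower. That bound depends on the floor, and INO was 2.35-fold lower under a floor at the 25th percentile. The median log2 ratio of the 3 YABBY genes, -0.23, is the bound of INO and so depends on the floor as well. The median over all measured genes was -0.03. YAB1 (also FIL), the closest relative of YAB3, and YAB2 and CRC had no named probe set here and were not analysed.

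Of 32 GRAS genes listed, 3 had a matching name and a named probe set, and LAS was the only one of these 3 at 2-fold. LAS itself was lower, beside 2.13% of all measured genes at least 2-fold lower and 3.75% at least 2-fold higher. SCL21, a positive regulator of phytochrome A signalling, gave 52.2 and 74.0 without and with NPA, a log2 ratio of 0.50. SCL23, which acts with SHR and SCR in the fate of bundle sheath cells, had 12.0 in the control, below the floor, and 42.5 with NPA, and was at least 1.5-fold higher. Under a floor at the 25th percentile that bound was 3.04-fold. With 6 more measured loci whose written names the gene table does not hold, 5 of 9 GRAS genes had a log2 ratio below 0 and 4 above. Of all 7753 measured genes, 4076 were below 0 and 3677 above. SCL23 and AT5G66770 were each at the floor on 1 array, so which array that was set their sign.

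Few other genes of leaf polarity could be read. PHV, a homeodomain-leucine zipper factor of class III that promotes the upper, adaxial side of the leaf, was the only 1 of 7 adaxial genes with a named probe set. It gave 89.4 and 134.8 without and with NPA, a log2 ratio of 0.59. That ratio lay between 0.47 and 0.60 under 9 other settings, of which a lower floor and no floor could not move it. Of 13 genes in the list of the abaxial side, 3 were measured: YAB3, YAB5 and AGO7. Of these, 1, YAB3 itself, was at least 2-fold lower and 0 at least 2-fold higher, beside 2.13% and 3.75% of all measured genes. The list's median of 0.07 is the ratio of AGO7, which does not promote abaxial identity but acts in making the small RNAs that restrain the abaxial factors ARF3 and ARF4. AGO7 had 28.6 in the control and 29.9 with NPA, both close to the floor, and a log2 ratio of 0.07. SEU, a co-regulator from a group of proteins that YABBY factors bind, had 141.6 and 163.7, a log2 ratio of 0.21. It was the only 1 of 5 genes measured in the list of leaf margin factors and YABBY partners. None of PHV, AGO7 and SEU reached 2-fold.

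LAS was the only 1 of 23 axillary meristem and branching genes measured, and none of 10 organ boundary and KNOX genes had a named probe set here. Other genes that act beside LAS in the leaf axil, such as the CUC and RAX genes, were thus not analysed, and the lower LAS signal has no second gene of its pathway beside it.

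The genes with the most similar signals over the 2 samples were found by distance in the plane of log2 control and log2 NPA signal, among 6808 genes above the floor on both arrays. Nearest to LAS were UGT76C2, a cytokinin N-glucosyltransferase gene, with signals of 61.8 and 29.6, AGL65, a MADS-box gene, with 61.8 and 29.5, and SWEET16, a vacuolar sugar transporter gene, with 62.6 and 28.6. Their distances were 0.0096, 0.011 and 0.058 on the log2 scale. Nearest to YAB3 were AT1G51745, AT5G25840 and AT5G59400, at distances of 0.025, 0.037 and 0.048. Nearest to YAB5 were AT4G38020, the gene OS9 of endoplasmic reticulum protein quality control and the DNA repair gene RAD4, at 0.012, 0.021 and 0.024. With 2 samples, such likeness describes only a pair of signals.

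The scale of the arrays was described, and the label of shoot tissue was set beside markers. After trimming 2% at each end, both arrays had the same mean signal. Scaling before deposit can set this, so it is no check that the arrays were alike. The log2 ratios of 18 spike-in probe sets averaged -0.07 (SD 0.21), from -0.61 to 0.2. The ratio of 3' to 5' signal of actin, GAPDH and ubiquitin was lower with NPA in 4 of 6 probe set pairs and higher in 2. The largest move was in an older actin pair, from 3.02 to 6.32, while the newer actin pair went from 2.21 to 1.66, and what part RNA quality has in the values was not tested. Of 6 genes of green leaf tissue, 4 were measured, with signals from 3671 to 5085 in the control and from 2147 to 4230 with NPA and summed signals of 17480 and 13270. Their median log2 ratio was -0.38, from -0.77 for SBPASE through -0.50 for PRK and -0.27 for LHCB4.1 to -0.21 for LHCB4.2, but lowess centring took LHCB4.1 and LHCB4.2 above 0, and quantile normalization did so for LHCB4.2. Of the 4 shoot meristem markers only CLV3 had a named probe set, at the floor with 2.85 and 1.95, so no meristem marker could be set beside LAS.

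Markers of root and of other cell types were also read. Of 4 root genes, PYK10 had 609.5 and 425.4, beside medians over all probe sets of 43.3 and 44.5. EXPA18 had 36.8 and 28.3, while EXPA7 was at the floor on both arrays, and the summed signals were 665.5 and 470.6. Whether root tissue was in the samples was not tested. Of 4 stomatal lineage genes, STOMAGEN had 166.3 and 95.9 and FMA had 64.5 and 47.4, SPCH and MUTE were at the floor on both arrays, and the summed signals were 240.1 and 148.1. The 4 of these genes above the floor on both arrays had log2 ratios below 0, from -0.79 for STOMAGEN to -0.37 for EXPA18, and none reached 2-fold. The NPA signal of EXPA18 was close to the floor, which limited how low its ratio could be. Trichome, vascular and flower markers had no named probe set here. What part these markers' tissues have in the lower LAS and YAB3 signals was not tested.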

How the data were processed

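Shoot RNA of 2 samples, 1 per group by the treatment in the labels, was measured on ATH1 arrays. Each deposited value is the signal intensity of 1 probe set, on a linear scale, and was made with MAS5 and GCOS (versions not given), per the submitters' processing notes. Both arrays had the same trimmed mean when deposited, and such scaling can hide a shift shared by most genes. Of 22810 probe sets, 64 controls were set aside. Of the other 22746, 13513 have 1 gene in the annotation, 503 several and 8730 none. Loci were assigned by gene identifier through the TAIR10.1 gene table, used for loci and names only, which matched 13436 of the probe sets with 1 gene. Signals under each array's 40th percentile were set to it, and genes above this floor on 1 or both arrays count as measured. Where 1 signal is at the floor, the ratio is given as a bound. NPA was set over control as a log2 ratio, with no test.

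The 3 genes and the lists were chosen with earlier results of these data known. The 7 lists and 7 marker lists were written by locus, and a locus whose written name the gene table does not hold was dropped. Genes named are the 3 genes, all measured list genes and the 3 genes nearest to each in signal. The alternatives were lowess (span 0.3), quantile and median scaling, a floor at the 25th or the 55th percentile, none at all or added as a constant, averaged probe sets per gene, probe sets without shared suffixes, and size rules of 1.5-fold and 3-fold. The steps were tested on simulated arrays with planted changes, all larger than those of LAS, YAB3 and YAB5 and at higher control signals. That test therefore does not cover changes near the floor. Sequences were not used here. The scripts ran in Python 3.11.15 with pandas 2.3.3, numpy 2.4.6, statsmodels 0.14.6 for lowess, scipy 1.17.1 and matplotlib 3.10.9. Precision is limited by having 1 array per group.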

Additional observations from a re-analysis of the deposited data

How the results depend on the processing

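No paired analysis was possible because each group is 1 array, and for the same reason no array could be left out. LAS, YAB3 and YAB5 kept their direction in all 9 alternatives named in the methods that apply to single genes. LAS stayed past 2-fold in 7 of them and YAB3 in 8. These counts hold settings that could not change the values. Each gene has 1 probe set without a shared suffix and was above the floor on both arrays. A floor at the 25th percentile, no floor, averaged probe sets and leaving out shared suffixes therefore returned the same ratios. The LAS log2 ratio moved to bounds of -0.15 under the 55th-percentile floor and -0.46 under the 50th-percentile one, and to -0.64 with the floor added, where YAB3 had -0.87. Floors at the 45th, 50th and 60th percentile, the lowered control signals and the kept GRAS loci were chosen after seeing the data. Higher and lower genes at 2-fold, 291 and 165, numbered 1102 and 1340 without a floor, 174 and 71 with the floor added, and 421 and 297 under a floor at the 25th percentile. By construction a 1.5-fold rule gave 869 and 822 and a 3-fold rule 75 and 18. Of 122 values of 14 other list genes, 117 moved by less than the local SD and 5, all of INO and SCL23, which were at the floor on 1 array, moved by more. A lower floor and no floor could not move genes above the floor on both arrays. The cause of the other shifts was not tested.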

Other observations

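A further 11 loci of the GRAS list were dropped because the gene table does not hold the names written for them. Kept by locus, they bring the GRAS genes on the array from 3 to 13 and those measured to 9, a choice made after seeing the data. LAS was again the only one of these 9 at 2-fold in either direction. Among all measured genes, 2.13% were at least 2-fold lower and 3.75% at least 2-fold higher. The median log2 ratio of the 9 was -0.08, against 0.50 for the 3 with matching names. The lowest ratio among the added loci was at AT5G66770, with signals of 35.43 and 24.97 and at least 1.27-fold lower with NPA, and the highest at AT3G50650, with 28.5 and 36.0 and a log2 ratio of 0.34. AT3G46600 had 53.0 and 43.9, a log2 ratio of -0.27, and AT1G63100, AT2G37650 and AT5G59450 had log2 ratios of -0.14, -0.08 and 0.21. The remaining 4 loci on the array, AT4G08250, AT3G13840, AT1G07520 and AT3G49950, were at the floor in both samples.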
